A study of Mus musculus with 2 samples.

Results

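Internal exons of 30 bases or less were read from long RNA molecules of mouse gastrocnemius, the large fast muscle of the calf. The set holds every exon of that length that is neither the first nor the last of a transcript model that matches the GENCODE M21 annotation (class Known) and has at least 1 read in either library. It counts 488 exons in 443 genes, out of 84947 internal exons of all lengths in such models. Of these 488, 352 were held by a Known model of both libraries, 95 by one of replicate 1 alone and 41 by one of replicate 2 alone. Coding sequence filled 464 of them, 14 lay across a coding boundary, 7 in the 5′ UTR, 1 in the 3′ UTR and 2 in noncoding transcripts.

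The study has 1 group of 2 libraries, both from the gastrocnemius of male B6CASTF1/J mice, a first-generation cross of C57BL/6 and CAST/Ei strains, at 36 days of age, made from 2 µg of total RNA each. No treatment, genotype contrast or control group is labelled, so the comparisons that can be made are between exons and between the libraries. The labels number the males differently but give both libraries the same donor entry, so a difference between the libraries measures the spread between these samples, which may be technical. Reads in annotated genes numbered 1036455 in replicate 1 and 1374068 in replicate 2, and a gene with no read may still be present at up to 2.89 and 2.18 CPM, or counts scaled to a library total of 1e+06 (3 reads of each total, counting error only).

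Very short exons, often called microexons, are known mainly from neurons, where the splicing factor SRRM4 raises the use of many of them, and from muscle, where RBFOX and MBNL proteins act on others. Splicing factors usually recognise an exon by binding at both of its ends, and a very short exon leaves little room between them. Where their length is a multiple of 3, an exon of this kind adds or removes a few amino acids and keeps the reading frame. Fast muscle RNA was abundant here: Acta1, Ckm, Myh4, Atp2a1 and Tnnt3 together took 269600 and 173300 CPM. Of these sums Atp2a1 took 100400 and 26010 CPM. Acta1 and Ckm were also lower in replicate 2, while Myh4 and Tnnt3 were higher. Neuronal marker genes were at or near 0, since Snap25 and Gap43 had no read and Syt1, Rbfox3, Map2, Stmn2 and Tubb3 had between 0 and 4 in each library. In bulk samples, fewer cells of a type and less RNA per cell cannot be told apart.

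For each exon, inclusion is the share of informative reads that hold the exon with both of its annotated ends. Informative reads are those plus the reads of the same gene whose models splice across the exon. At least 10 informative reads in each library were asked for, which 194 members in 177 genes reached and 294 did not. A member has at least 1 Known read by its definition, so an inclusion of 0 in both libraries cannot occur among the 488. Exons of 1 gene share reads and are not independent.

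The members with a mean inclusion between 10 and 90% are shown first, since most of the results below turn on them. Each sequence is the spliced messenger RNA as DNA letters, 5′ to 3′, from the GENCODE M21 transcripts (GRCm38, the build called mm10). Capitals mark the short exon and lower case marks up to 12 bases of the neighbouring exons. Only the exon itself is printed for Hnrnpc, where it is 5′ UTR.
Myl1, 28 bases, chr1:66934246-66934273, minus strand: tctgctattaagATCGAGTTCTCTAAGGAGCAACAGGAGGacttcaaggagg
Myl1, 25 bases, chr1:66934518-66934542, minus strand: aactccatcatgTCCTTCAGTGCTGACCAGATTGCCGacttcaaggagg
Anxa6, 18 bases, chr11:54987051-54987068, minus strand: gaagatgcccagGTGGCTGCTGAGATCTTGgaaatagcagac
Ppp3ca, 30 bases, chr3:136932011-136932040, plus strand: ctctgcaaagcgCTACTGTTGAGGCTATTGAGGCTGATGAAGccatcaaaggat
Ppp3cc, 27 bases, chr14:70225928-70225954, minus strand: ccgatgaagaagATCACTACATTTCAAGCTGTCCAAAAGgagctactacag
Mapk12, 30 bases, chr15:89135427-89135456, minus strand: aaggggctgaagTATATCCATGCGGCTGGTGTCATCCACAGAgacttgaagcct
Mast2, 21 bases, chr4:116333413-116333433, minus strand: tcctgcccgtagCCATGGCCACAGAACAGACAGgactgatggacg
Mef2d, 21 bases, chr3:88161781-88161801, plus strand: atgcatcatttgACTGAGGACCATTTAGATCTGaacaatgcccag
Dnm2, 12 bases, chr9:21490658-21490669, plus strand: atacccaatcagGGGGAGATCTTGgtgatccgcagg
Rilpl1, 24 bases, chr5:124495899-124495922, minus strand: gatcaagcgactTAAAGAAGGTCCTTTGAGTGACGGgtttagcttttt
Dtnbp1, 23 bases, chr13:44953172-44953194, minus strand: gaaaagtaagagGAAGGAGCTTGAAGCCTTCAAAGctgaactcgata
Chmp1a, 20 bases, chr8:123210216-123210235, minus strand: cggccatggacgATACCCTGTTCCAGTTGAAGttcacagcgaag
Mia2, 27 bases, chr12:59146336-59146362, plus strand: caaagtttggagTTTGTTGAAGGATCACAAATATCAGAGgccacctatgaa
Tpd52, 27 bases, chr3:8943551-8943577, minus strand: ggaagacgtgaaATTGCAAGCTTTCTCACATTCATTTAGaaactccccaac
Tpd52l2, 27 bases, chr2:181510504-181510530, plus strand: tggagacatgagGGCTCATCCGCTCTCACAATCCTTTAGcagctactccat
Atp2a2, 18 bases, chr5:122500931-122500948, minus strand: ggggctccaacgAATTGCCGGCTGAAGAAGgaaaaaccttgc
Trim55, 23 bases, chr3:19671407-19671429, plus strand: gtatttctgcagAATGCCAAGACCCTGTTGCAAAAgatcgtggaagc
Fbxo25, 27 bases, chr8:13938922-13938948, plus strand: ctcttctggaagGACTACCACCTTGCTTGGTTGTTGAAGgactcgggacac
Zswim7, 22 bases, chr11:62276618-62276639, minus strand: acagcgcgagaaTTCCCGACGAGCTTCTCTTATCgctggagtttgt
Luc7l2, 30 bases, chr6:38598785-38598814, plus strand: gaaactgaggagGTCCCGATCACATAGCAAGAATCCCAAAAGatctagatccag
Ythdf3, 25 bases, chr3:16183922-16183946, plus strand: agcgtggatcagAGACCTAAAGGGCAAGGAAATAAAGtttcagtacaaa
Gas5, 28 bases, chr1:161037288-161037315, plus strand: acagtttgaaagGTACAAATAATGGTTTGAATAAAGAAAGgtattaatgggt
Hnrnpc, 26 bases, chr14:52098015-52098040, minus strand: TGAGATTTTTTTGATCTTCAGCTACA

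The members were mostly included. Mean inclusion had a median of 99.4% over the 194 members with enough reads, and a median of 100% in each library taken alone. Inclusion was above 90% in 167 members, between 10 and 90% in 23 and under 10% in 4. In 85 members not 1 read of either library skipped the exon. The shortest member, of 12 bases, belongs to Dnm2, and the median length was 27 bases. Few members were very short: 14 of 488 had under 19 bases, and 423 had 23 or more.

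Against longer internal exons, those of 30 bases or less held a larger share with intermediate inclusion. Inclusion between 10 and 90% was found in 11.9% of the short exons, in 5.77% of 1196 exons of 31 to 50 bases, in 2.86% of 9680 of 51 to 100 bases, in 1.76% of 14905 of over 100 and up to 200 bases and in 2.96% of 2368 longer ones. Counting only skips through junctions that a Known model holds, the shares became 7.81, 4.23, 1.72, 0.916 and 1.58%, in the same order of classes. The short class was not uniform in this count: 1 of 57 exons of 19 to 24 bases (1.75%) was intermediate, a lower share than at 31 to 50 bases, against 8.46% of 130 exons of 25 to 30 bases and 3 of 5 shorter ones. With all skips, 11.9% of 59 exons of 19 to 24 bases and 10% of 130 of 25 to 30 bases were intermediate. Lengths divisible by 3 made up 49.5% of the short exons and 38.0 to 39.9% of each longer class. Within the short exons the share was 60.9% (14 of 23) at intermediate inclusion and 47.9% (80 of 167) above 90%. At the limit of length, 37 of 40 exons of 30 bases with enough reads and all 26 of 31 bases were above 90%. These shares are descriptions over exons that differ in read number, and no test was made of them. The bar chart of intermediate exons by length shows the order of the classes.

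**Figure D1:**
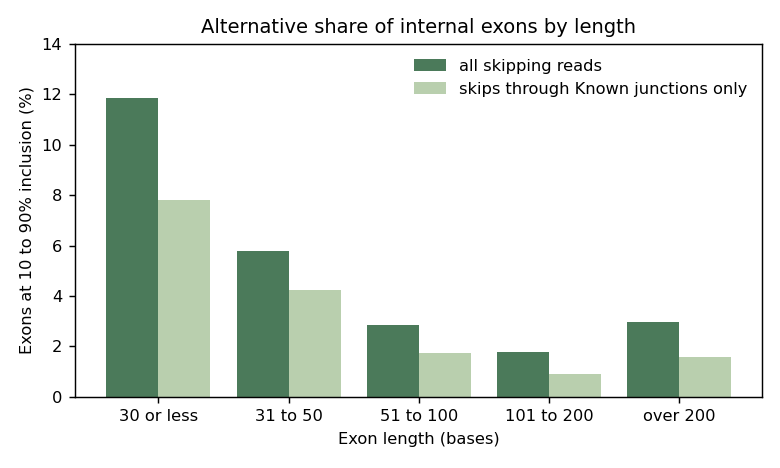
Share of internal exons with enough reads whose mean inclusion lies between 10 and 90% (y axis, percent) by exon length in bases (x axis), counted with all skipping reads (dark) and with skips through Known junctions only (light). The class of 30 bases or less stands at 11.9 and 7.81%, the highest of the 5 classes in both counts.

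Myl1 carried most of the skipping. This gene encodes the fast alkali light chains of myosin, and is known to be read from a pair of promoters into a longer and a shorter chain with different second exons. Both of those second exons are members, one of 28 and one of 25 bases, and together they took 91.9 and 94.8% of all skipping reads of the 194 members. In replicate 1, 4621 reads held the 28-base exon and 13364 skipped it, an inclusion of 25.7% (Wilson 95% interval 25.1 to 26.3). Replicate 2 had 7407 and 26518, or 21.8% (21.4 to 22.3). The 25-base exon was the more used one in both libraries, with 13156 reads holding and 4368 skipping it in replicate 1 and 25997 and 7327 in replicate 2, that is 75.1% (74.4 to 75.7) and 78.0% (77.6 to 78.5). These values rest on what counts as a skip. Where only skips that directly join the neighbours that the exon has in a Known model were counted, mean inclusion over the libraries went from 23.8 to 99.99% for the 28-base exon and from 76.5 to 99.95% for the 25-base exon.

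The upstream partner was nearly fixed for the 25-base exon of Myl1 and less so for the 28-base exon. Of reads with the 28-base exon, 87.4 and 82.6% joined it to the exon whose splice site lies 10518 bases upstream, and 12.0 and 16.5% joined it to the 25-base exon. Of reads with the 25-base exon, 97.8 and 98.2% joined it to an exon 733 bases upstream. Across the 28-base exon, 13036 and 25329 of the skipping reads used a Known junction. Both lengths leave a remainder of 1 base when divided by 3. Both exons run into the same downstream exon, whose first bases are seen in lower case behind both exons in the sequences above.

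On the same reads, the Myl1 exons were seldom found together. In replicate 1, 12600 reads held only the 25-base exon, 4069 only the 28-base exon, 546 both and 299 neither. The same classes held 24771, 6188, 1211 and 1137 reads in replicate 2. Exactly 1 of the exons was present on 95.2 and 93.0% of the reads that decided both. The log2 odds ratio was -8.29 and -6.80, and the adjusted p of the Fisher exact test was too small to be held and was written as 0 in both libraries. Each exon was mostly joined to a different upstream exon, so the test does not measure a link between separate splicing choices.

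**Figure D2:**
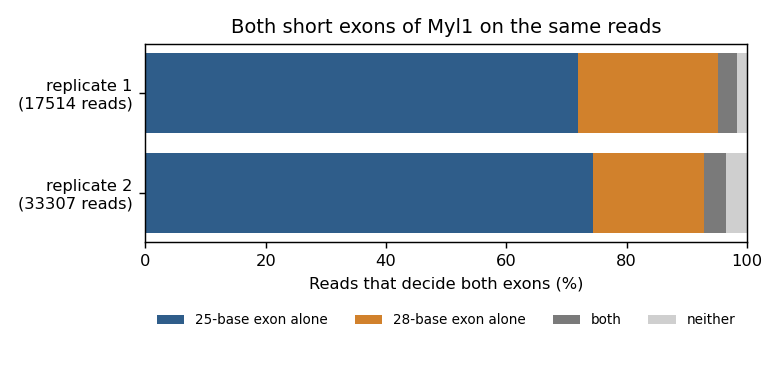
Share of reads (x axis, percent) that hold the 25-base exon alone, the 28-base exon alone, both or neither in Myl1, 1 bar per library. In both libraries the reads with exactly 1 exon fill over 90% of the bar (95.2 and 93.0%).

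Linkage on the same reads was tested for 157 pairs of internal exons of any length in 84 genes, where both exons were at 5 to 95% inclusion. Of these 157, 42.7% (67) were called, with an adjusted p under 0.05 in both libraries and the same sign. A short exon took part in 12 pairs of 7 genes, of which 8 were called. The Myl1 pair had negative log2 odds in both libraries and the other 7 had positive odds, that is, exons that came and went together. In Mapk12, which encodes the gamma form of p38 kinase that is abundant in muscle, the 30-base exon went with its 112-base neighbour on 120 reads and was absent with it on 22 in replicate 1, against 2 and 0 reads that held only 1 of them (log2 odds 11.08, adjusted p = 2.1e-22, Fisher exact test). Replicate 2 had 132, 24, 1 and 6 such reads (8.38, adjusted p = 1.1e-20). Its pairs with the exons of 48 and 115 bases were called too, with log2 odds of 5.63 to 9.99. Most skips of the 30-base exon ran through 1 long annotated junction (18 of 22 and 19 of 33 reads), so the exon was usually lost together with several neighbours.

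Zswim7, whose product is known from homologous recombination, held its exons of 22 and 103 bases together or not at all. Replicate 1 had 12 reads with both and 9 with neither, and replicate 2 had 27 and 20, with 0 reads holding 1 of them (adjusted p = 1.6e-05 and 1.0e-12, Fisher exact test). Of the skips of the 22-base exon, 100 and 95% used 1 junction that also spans the 103-base exon. Where 1 junction removes both exons, the test does not measure a link between separate splicing choices. The 27- and 42-base exons of Tpd52l2 were both present on 15 and 27 reads and both absent on 14 and 20, while 2 reads in each library held only the longer one (adjusted p = 2.7e-06 and 7.1e-11, Fisher exact test). Gas5, a noncoding host of small nucleolar RNAs, had its 28-base exon linked with both following exons of 43 bases. In Tpd52l2 and Gas5 too, most skips of the short exon did not directly join the neighbours that it has in a Known model. The 4 pairs not called were in Tpd52, Mia2, Gas5 and Tpd52l2. Tpd52 passed in replicate 1 alone (adjusted p = 0.0017 and 0.059, Fisher exact test).

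Signalling and transcription genes held several of the intermediate exons. In Ppp3ca, a catalytic subunit of the calcium-dependent phosphatase calcineurin, 177 reads held the 30-base exon and 33 skipped it in replicate 1, against 103 and 23 in replicate 2, an inclusion of 84.3 and 81.7%. Its relative Ppp3cb had an exon of the same length that every one of 36 and 27 reads held. Ppp3cc has 2 members, of which the 30-base exon was held by all of 10 and 17 reads, and the 27-base exon was held by 7 and 10 reads and skipped by 4 and 7 (63.6 and 58.8%). In calcineurin genes the exon of 30 bases was skipped on some reads of Ppp3ca, and no skipping read was seen in the other genes at a depth of 10 to 36 reads.

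Mapk12 reached 84.8% in replicate 1 and 80.1% in replicate 2 for its 30-base exon, from 123 reads that held it and 22 that skipped it, and 133 and 33. Mast2, a kinase linked to microtubules, held its 21-base exon on 31 reads and skipped it on 14 in replicate 1, and on 6 and 5 in replicate 2 (68.9 and 54.5%). The 21-base exon of the muscle transcription factor Mef2d was held by 39 and 18 reads and skipped by 5 in each library (88.6 and 78.3%). In Mef2a, from the same family, 38 reads held and 4 skipped the 24-base exon in replicate 1, and all 12 reads of replicate 2 held it (90.5 and 100%). In each of these genes the 95% intervals of the libraries overlapped.

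Membrane and vesicle genes followed. Anxa6, an annexin that binds membranes in the presence of calcium, held its 18-base exon on 172 reads and skipped it on 48 in replicate 1 (78.2%), and skipped it on 23 in replicate 2 (81.5% inclusion). All but 1 of these skips used a Known junction. Dnm2, the widely expressed dynamin that pinches off vesicles, used its 12-base exon on few reads, 6 against 31 skipping ones in replicate 1 and 1 against 9 in replicate 2 (16.2 and 10%). Mia2, which acts in the export of large cargo from the endoplasmic reticulum, included its 27-base exon at 73.0 and 84.0%, on 27 and 21 reads. Rilpl1, a protein related to a Rab effector, stood at 78.8 and 71.8% for its 24-base exon, with 119 and 89 reads that held it.

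The related genes Tpd52 and Tpd52l2 both held a 27-base exon near the middle of the range. Tpd52 stood at 56.8% in replicate 1 (21 reads held and 16 skipped it) and 44.4% in replicate 2 (16 and 20). For Tpd52l2 the values were 50% (16 and 16) and 56.9% (29 and 22). The order of the libraries was opposite in the 2 genes, and the 95% intervals overlapped in each. In both genes every skip used a Known junction. Where a skip had to join directly the neighbours that the exon has in a Known model, mean inclusion was 91.2% in Tpd52l2, against 53.4% with all skips, and 51.2% in Tpd52, against 50.6%.

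Among RNA-binding proteins, Luc7l2, related to a part of the U1 particle, held its 30-base exon on 14 reads and skipped it on 9 in replicate 1, and on 9 and 7 in replicate 2 (60.9 and 56.2%). The 26-base exon of Hnrnpc, which lies in the 5′ UTR, was held by 12 and skipped by 8 reads in each library (60%). Gas5 stood at 87.5 and 85.3%, on 21 and 58 holding reads, and the F-box gene Fbxo25 at 78.6 and 90%, on 11 and 9. With 10 to 30 informative reads, an interval spans 30 points or more for exons in the middle of the range, so no order of these genes is given.

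Several of these exons left the intermediate range when only skips through a Known junction counted. Mean inclusion went from 82.5 to 98.1% in Mapk12, from 75.3 to 92.6% in Rilpl1 and from 83.5 to 94.9% in Mef2d. It was 100% in Zswim7, Atp2a2, Trim55, Ythdf3 and Dtnbp1, where no skip used such a junction, and Chmp1a was left with too few reads. Where instead a skip had to join directly the neighbours that the exon has in a Known model, Mia2 and Gas5 stood at 100%. The exons of Anxa6, Ppp3ca, Ppp3cc, Mast2, Dnm2, Luc7l2, Hnrnpc, Fbxo25 and Tpd52 stayed between 10 and 90% in both counts.

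**Figure D3:**
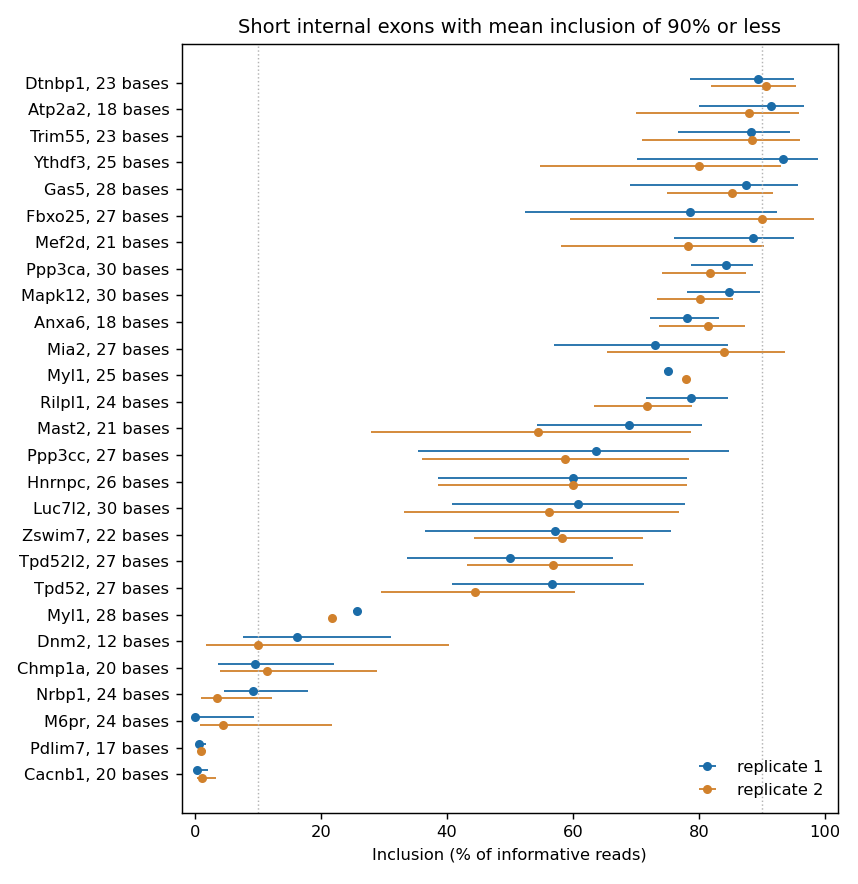
Inclusion in percent of informative reads (x axis) of the 27 members with a mean inclusion of 90% or less, 1 row per exon, with replicate 1 in blue and replicate 2 in orange. Bars are Wilson 95% intervals, which overlap between the libraries in each row but those of the Myl1 exons, and the dotted lines mark 10 and 90%.

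At the lower end, 4 members were held by under 10% of reads. Cacnb1, the beta subunit of the muscle calcium channel, held its 20-base exon on 1 and 3 reads and skipped it on 257 and 249, of which 257 and 248 used a Known junction. Nrbp1, a pseudokinase, had 7 and 2 reads with its 24-base exon and 68 and 53 without, all through Known junctions. M6pr, a mannose 6-phosphate receptor, had 0 and 1 with the 24-base exon of its 5′ UTR and 37 and 21 without. The fourth, in Pdlim7, differed in how it was skipped and is described with the junctions.

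Lengths divisible by 3 were counted among the intermediate exons by what the annotation holds, a description over few exons with no test. Among the 16 coding exons between 10 and 90% that an annotated junction also skips, 13 had a length divisible by 3. The 3 others were both Myl1 exons and the 23-base exon of Dtnbp1. Among the 5 coding exons that no annotated junction skips, in Atp2a2, Chmp1a, Trim55, Ythdf3 and Zswim7, 1 was divisible by 3, the 18-base exon of Atp2a2. In these 5 and in Dtnbp1 not 1 skipping read used an annotated junction. Over all members with enough reads, median inclusion was 95.0% for the 57 that an annotated junction skips, 18 of them at intermediate inclusion, and 99.8% for the 137 that none skips, with 5 at intermediate inclusion. Lengths divisible by 3 made up 56.1% (32) of the former and 46.7% (64) of the latter, a smaller gap than among the intermediate exons. The medians of 95.0 and 99.8% hold for members alone, each of which has a Known read by definition. Over all annotated internal exons of 30 bases or less with enough reads, median inclusion was 0% where an annotated junction skips the exon. Where none does, it was 99.3%.

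The junctions of skipping reads were then compared with the annotation. Without Myl1, 4.93 and 7.38% of informative reads skipped a member, and 37.9 and 26.1% of these 1567 and 1840 reads used a Known junction, against 91.6 and 89.5% with Myl1. A skip is called displaced where its junction is not in GENCODE and the neighbouring exons keep all their bases and gain 1 to 30 bases at the skip. Displaced skips made up 51.2 and 62.9% of the skipping reads outside Myl1. Without Pdlim7 as well, they made up 20.7 and 26.7%. In exons of 31 to 50 bases the share was 0.876 and 0.810%, and in the longer classes it ran from 0.0664 to 1.32%. The limit of 30 added bases equals the length limit of the members. A skip that adds as many bases as a longer exon holds is not counted, so this comparison by length rests partly on the definition.

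Pdlim7, a PDZ and LIM protein of the Z-disc, held 40.5 and 52.6% of the skipping reads outside Myl1. Its 17-base exon was held by 5 reads and skipped by 635 in replicate 1, and by 10 and 967 in replicate 2 (0.781 and 1.02%). Mean inclusion, 0.902% with all models, was 8.73% without incomplete and genomic models, 28.3% with Known models alone and 37.7% where only skips through a Known junction counted, so its place under 10% depends on the models used. Of the skips, 600 and 907 used 1 junction that is not annotated and that starts the downstream exon 25 bases early. Known junctions were used by 17 and 9. Bsg, or basigin, a partner of lactate transporters, was skipped on 62 and 70 reads against 915 and 1080 that held its 25-base exon (93.7 and 93.9%), and 57 and 60 of those skips started the downstream exon 28 bases early.

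The same kind of junction was seen in several genes named for intermediate inclusion. All 38 and 23 skips of the 20-base exon of Chmp1a, a part of the ESCRT machinery, added 25 bases to the upstream exon, beside 4 and 3 reads that held the exon (9.52 and 11.5%). In Dtnbp1, or dysbindin, 5 and 7 skips added 28 bases upstream, beside 50 and 68 holding reads. Trim55, a ring-finger protein of the sarcomere, had 6 and 3 displaced skips beside 45 and 23 holding reads (88.2 and 88.5%). Atp2a2, the calcium pump of slow muscle and heart, had 4 and 3, all with 4 added bases, beside 43 and 22 (91.5 and 88.0%). Sugt1, whose 17-base exon stood at 90.6 and 89.7%, had 3 and 5. In Zswim7 no skip was displaced: 9 and 19 used a junction between annotated splice sites that GENCODE does not join, and inclusion was 57.1 and 58.3%. Ythdf3 had 1 and 3 skips beside 14 and 12 holding reads, none displaced. What gives rise to these junctions was not tested.

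The exons of Pdlim7, Bsg and Sugt1 are shown because most of their skips were displaced. Those of Atp2a1 and Hacd1, which are annotated but which no Known model with a read holds, are shown with them. Capitals mark the exon, as above.
Pdlim7, 17 bases, chr13:55507864-55507880, minus strand: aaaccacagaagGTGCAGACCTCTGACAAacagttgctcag
Bsg, 25 bases, chr10:79711256-79711280, plus strand: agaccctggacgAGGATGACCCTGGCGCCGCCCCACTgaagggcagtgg
Sugt1, 17 bases, chr14:79603470-79603486, plus strand: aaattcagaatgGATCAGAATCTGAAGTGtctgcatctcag
Atp2a1, 18 bases, chr7:126462500-126462517, minus strand: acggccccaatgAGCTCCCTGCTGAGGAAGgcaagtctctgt
Hacd1, 19 bases, chr2:14044948-14044966, minus strand: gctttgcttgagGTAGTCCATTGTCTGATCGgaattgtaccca

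To see what the rule leaves out, all 2857 internal exons of 30 bases or less in GENCODE M21 were counted, of which 375 had enough reads and 194 of those are members. Inclusion was mostly 0 below 19 bases. Of 34 annotated exons of 1 to 9 bases with enough reads, none is a member and none was held by a read. From 10 to 15 bases 35 of 38 had no holding read and 1 is a member, the Dnm2 exon. From 16 to 18 bases 16 of 25 had none and 4 are members. From 28 to 30 bases 8 of 97 had none, and 77 are members. Where no annotated junction skips the exon, the median inclusion was 0% for 14 exons of 1 to 18 bases, 93.6% for 24 of 19 to 22 bases and 100% for 136 of 23 to 30 bases. Where one does, it was 0% for 83 exons of 1 to 18 bases and 0.977% for 32 of 19 to 22 bases. For 86 of 23 to 30 bases it was 59.3%, and 38 of these were under 10%.

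Atp2a1, the calcium pump of fast muscle, gave the largest of these values. Its 18-base exon, which no annotated junction skips, was held by 0 of the reads, against 100355 and 32119 that spliced across it. Of those, 99610 and 31821 used 1 junction that is not annotated and adds 26 bases to the upstream exon. Its relative Atp2a2, with 13 of 18 bases of the exon in common, had 91.5 and 88.0% inclusion on 43 and 22 reads. Hacd1 was alike, with 0 reads holding its 19-base exon and 340 and 488 of 343 and 492 skips adding 27 bases. The 7-base exon of Tnni2 was held by 0 reads and skipped by 4609 and 6490, of which 4360 and 6116 joined its neighbours exactly. The 9 annotated short exons of Tnnt3 with enough reads were held by 0 to 13 reads against 1837 to 3279 skipping ones.

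**Figure D4:**
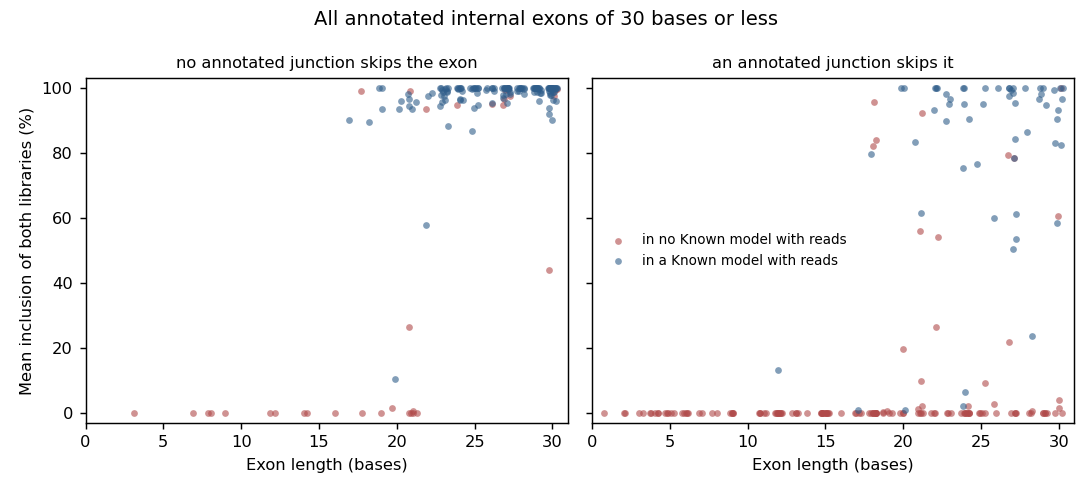
Mean inclusion over both libraries (y axis, percent) against exon length in bases (x axis, points spread sideways) for the 375 annotated internal exons of 30 bases or less with enough reads, left where no annotated junction skips the exon and right where one does. Exons held by a Known model with a read are blue and the others red. On the left, exons of 23 to 30 bases lie near 100% (median 100%) and those of 1 to 18 bases mostly at 0% (median 0%). On the right, the medians of these lengths are 59.3 and 0%.

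Of the 12 members with most informative reads, the Myl1 exons and that of Pdlim7 are described above, and the other 9 were each included on over 90% of reads. The 28-base exon of Myh4, the fast myosin heavy chain of type IIb fibres, was held by 7241 reads and skipped by 36 in replicate 1, and by 1717 and 23 in replicate 2 (99.5 and 98.7%). Mybpc2, the fast myosin-binding protein C, held its 30-base exon on 5777 and 1976 reads and skipped it on 12 and 6. Reads of all Myh4 models numbered 14581 and 22718, of which incomplete models took 52.2 and 87.0%. In Mybpc2 incomplete models took 20.6% of 6414 and 48.9% of 3260 reads. Whether this accounts for the lower number of holding reads in replicate 2 was not tested. In Myh1, of type IIx fibres, the 28-base exon had 1847 and 244 holding and 18 and 6 skipping reads (99.0 and 97.6%). Selenow, a selenoprotein, had 1665 and 3320 holding and 3 and 12 skipping reads for its 25-base exon. The ribosomal protein gene Rpl41 has 2 members in a row, of 25 and 23 bases, held by 578 and 616 reads in replicate 1 and 1404 and 1511 in replicate 2, with at most 2 skips. Gpx4, a peroxidase that protects membrane lipids, and Atp5mpl, a small subunit of the ATP synthase, had at most 3 skips of their exons of 25 and 24 bases.

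Related genes held short exons of the same length. Members were grouped by the letters of the gene symbol before its first digit, which gave 57 groups of 2 or more genes, with 166 genes and 191 exons. In 24 of the 57, all exons had 1 length. Among 371 pairs of exons from different genes of a group, 53.4% had the same length, against 10.9% of the 118398 other pairs of members. Of 195 same-length pairs within a group whose sequences were compared base by base, 72 were identical at 60% or more of positions, against 21 of 12251 same-length pairs outside. Symbols do not always name a true family, as in Tmem or Zfp, and pairs share exons, so these shares are descriptions.

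**Figure D5:**
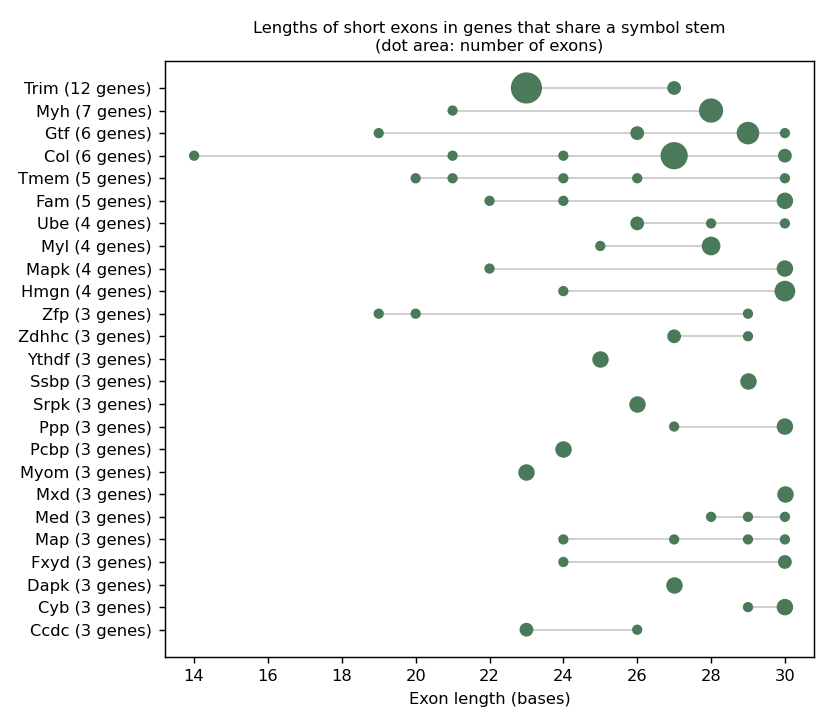
Exon length in bases (x axis) of the members in each group of 3 or more genes whose symbols share the same letters (y axis), with dot area in proportion to the number of exons. All 12 Trim genes hold an exon of 23 bases, and the groups Ythdf, Ssbp, Srpk, Pcbp, Myom, Mxd and Dapk have 1 length each.

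All 12 Trim genes in the set, ubiquitin ligases with a ring finger, held an exon of 23 bases, and 2 of them held a second one of 27. Myosin heavy chains were alike, with 28 bases in Myh1, Myh2, Myh3, Myh4, Myh7, Myh9 and Myh11. Myl1, Myl3, Myl4 and Myl6 each hold one of 28 bases. Those sequences are set out below for genes that the values name, with the bases shared at every position of a set in capitals and the others in lower case. Of the Trim genes only Trim54, Trim55 and Trim63 are shown, whose pairs were identical at 56.5 to 65.2% of positions. For other pairs of 23-base Trim exons the share was as low as 13.0% (Trim72 and Trim39).
Myh4, 28 bases, chr11:67242141-67242168: AtcGtGAGAAtCAGTCcATccTgATtAC
Myh1, 28 bases, chr11:67203576-67203603: AtcGgGAGAAcCAGTCtATttTgATcAC
Myh2, 28 bases, chr11:67176144-67176171: AcaGgGAGAAtCAGTCaATccTgATcAC
Myh7, 28 bases, chr14:54991716-54991743: AtcGgGAGAAtCAGTCcATccTcATcAC
Myl1, 28 bases, chr1:66934246-66934273: atcGAgTTCtCtaagGAgCAacagGagG
Myl3, 28 bases, chr9:110766479-110766506: atcGAgTTCaCacctGAaCAgattGaaG
Myl6, 28 bases, chr10:128493539-128493566: tgtGAcTTCaCcgagGAcCAgaccGcaG
Trim54, 23 bases, chr5:31136753-31136775: cagGCaAAGgagCTgaTcaAcAa
Trim55, 23 bases, chr3:19671407-19671429: aatGCcAAGaccCTgtTgcAaAa
Trim63, 23 bases, chr4:134325045-134325067: agtGCcAAGcagCTcaTcaAgAg
Ppp3ca, 30 bases, chr3:136932011-136932040: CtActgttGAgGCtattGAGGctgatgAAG
Ppp3cb, 30 bases, chr14:20503247-20503276: CcAcagttGAgGCtattGAGGctgaaaAAG
Ppp3cc, 30 bases, chr14:70220017-70220046: CcAaacaaGAaGCcgcaGAGGagcgggAAG
Mapk12, 30 bases, chr15:89135427-89135456: TATATcCATgCGGCTGgtgTcATcCACAGa
Mapk14, 30 bases, chr17:28725493-28725522: TATATaCATtCGGCTGacaTaATtCACAGg
Ythdf1, 25 bases, chr2:180920312-180920336: AGAaCaAAAGGaCAAGatAAtAAAG
Ythdf2, 25 bases, chr4:132211432-132211456: AGAcCaAAAGGtCAAGgaAAcAAAG
Ythdf3, 25 bases, chr3:16183922-16183946: AGAcCtAAAGGgCAAGgaAAtAAAG
Tpd52, 27 bases, chr3:8943551-8943577: attgCAagCttTCTCACAtTCaTTTAG
Tpd52l2, 27 bases, chr2:181510504-181510530: ggctCAtcCgcTCTCACAaTCcTTTAG
Atp2a1, 18 bases, chr7:126462500-126462517: AgcTcCCtGCTGAgGAAG
Atp2a2, 18 bases, chr5:122500931-122500948: AatTgCCgGCTGAaGAAG

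Of 28 positions, 19 were the same in the 4 heavy chains and 12 in the 3 light chains. The exons of the Ythdf genes, which encode readers of methylated adenosine, shared 19 of 25 positions, and the Ppp3 exons 13 of 30. Within a set inclusion could differ. All 4 heavy chain exons were above 90% in mean inclusion (98.3 to 100%). Mapk14, which shares 22 of 30 positions with Mapk12, had no skip on 85 and 36 reads, and Ythdf1 and Ythdf2 had none on 30 and 42 reads of replicate 1 and 18 and 36 of replicate 2. Trim54 stood at 99.5 and 98.8% and Trim63, the atrophy ligase MuRF1, at 95.0 and 94.3%, on 388 and 333 and on 306 and 165 holding reads. No test of a difference between genes was made.

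No member was called different in inclusion between the libraries at the size set. By the Fisher exact test over all internal exons with enough reads, adjusted by Benjamini-Hochberg, 0 members were called at an adjusted p under 0.05 and a difference of at least 10 points. Over exons of all lengths 0.0176% were called (5 of 28343). The median absolute difference was 0.472 points over the 194 members, 164 differed by under 5 points and 9 by 10 or more. At an unadjusted p under 0.05 there were 4 members, in Myl1 (2), Myh4 and Trim35. Both Myl1 exons had small differences with many reads: inclusion in replicate 2 minus that in replicate 1 was -3.86 points for the 28-base exon (adjusted p = 1.7e-18, Fisher exact test) and 2.94 points for the 25-base exon (adjusted p = 1.3e-09, Fisher exact test). Those 2 values come from the same reads of 1 gene.

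Genes of splicing factors, among them those known to act on short exons, were compared between the libraries. Of 23 such genes, 18 had enough reads to be tested and 2 were called higher in replicate 1, with none higher in replicate 2, by an exact binomial test, where a call needs a change of 2-fold or more and a Benjamini-Hochberg adjusted p below 0.05. Among all genes tested 18.6% were called (1555 of 8339). Mbnl2, a muscleblind protein, had 228 reads in replicate 1 and 78 in replicate 2 (220 and 56.8 CPM, log2 difference -1.95, adjusted p = 4.1e-27, exact binomial test). Celf2 had 44 and 28 (log2 -1.05, adjusted p = 0.012, exact binomial test), a call that TMM scaling or DESeq2 size factors did not give. The median log2 difference was -0.60 in the list and -0.28 over all genes tested. Without incomplete and genomic models 3 genes were called, Mbnl2, Rbfox1 and U2af2, and the median of the list was -0.97. The share and median over all genes given above come from all models and are not the background of this count. In this count TMM scaling changed the totals from 873639 and 1031164 to 1002352 and 898751, so genes at large were also shifted towards replicate 1. Of those not called with all models, Rbm24 had 213 and 203 reads, Puf60 125 and 104, Qk 106 and 97, Mbnl1 82 and 75 and Rbfox1 44 and 32. Srrm4 and its relative Srrm3 had 0 reads in both libraries.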

How the data were processed

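Long RNA reads of 2 gastrocnemius libraries were analysed from the deposited tables. The authors gave raw counts of reads per transcript model, and annotation files list the exons of each model on mm10 against GENCODE M21, per the file headers. TALON is named per the file headers as the source of unannotated models, and the aligner is not given in the sources used here. Models are classed Known, incomplete, recombined, with a new splice site, or genomic. Spike-in and unannotated genes were left out. Reads of every class counted where their model holds the exon or splices across it. Reads whose models do not span the exon did not count, nor did partly overlapping ones (about 1.1% over members with enough reads). Alternatives counted only skips through a junction of a Known model, or only skips that directly join the neighbours that the exon has in a Known model, whether or not a Known model holds that junction.

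Minimums were 10 informative reads in each library per exon, 20 joint reads per pair and 10 reads in sum per gene. Exons and pairs were tested with Fisher's exact test, and genes with an exact binomial test given the library totals, with 0.5 reads added for fold changes, each adjusted by Benjamini-Hochberg (SciPy 1.17.1, NumPy 2.4.6, Python 3.11.15). These tests treat reads as independent and hold no spread between animals. Each was tested on simulated counts, with large changes planted in exons, genes and pairs well above these minimums and no added spread between libraries. Exons, genes and pairs near the minimums were not covered by it. TMM factors (edgeR 4.0.16) and size factors (DESeq2 1.42.0) served as alternative scalings. Intervals are Wilson 95% intervals and cover counting error only. Members, gene lists and tests were chosen with earlier results of these data known. Named exons are the 12 with most informative reads, those at 10 to 90% inclusion, those called between the libraries, those in a fixed list of host genes, the 5 with the largest skipped share among members that no Known junction skips, and called pairs; others named were chosen after their values were seen, or belong to the symbol groups.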

Additional observations from a re-analysis of the deposited data

How the results depend on the processing

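No paired analysis was possible because the series has 1 group and no groups to pair. With Known models alone, 148 members had enough reads, median inclusion was 100%, 6.08% lay at 10 to 90%, 45.9% had a length divisible by 3, every skip was Known by construction (100%), and 4 linked pairs were called. Leaving out incomplete and genomic models gave a median of 99.4% and a Known share of 92.6%. Counting an exon also where it is first or last gave a median of 99.4%. Only skips through a Known junction gave a median of 100%, a Known share of 100% by construction and 7.81% at 10 to 90%. Only skips that directly join the neighbours the exon has in a Known model gave 100%, 88.1% and 5.26%. A minimum of 20 informative reads gave a median of 99.1%. A minimum of 1 gave 422 members, a median of 100% and 15.4% at 10 to 90%. A length of 27 bases or less gave 117 members, 98.4%, 15.4% and a Known share of 75.4%. Leaving out 1 replicate at a time gave 210 to 255 members, a median of 100 to 100%, 13.8 to 16.1% at 10 to 90%, 49.5 to 54.1% divisible by 3 and a Known share of 89.5 to 91.5%. Without Myl1, chosen after seeing the data, the Known share was 31.6%, against 90.2% with it. Without a minimum size of the difference 2 members were called between the libraries, both in Myl1. With 40 jointly informative reads 4 linked pairs were called, in Myl1 and Mapk12, since the other pairs with a short exon had fewer joint reads in a library. TMM scaling and DESeq2 size factors each called 1 splicing factor, Mbnl2, and leaving out incomplete and genomic models called 3 (Mbnl2, Rbfox1 and U2af2). The shares of all exons, pairs and genes called at these alternative settings are not given here, so these counts have no background beside them. Scaling moved the median log2 difference of all genes from -0.28 to -0.02 and -0.01. Of the 37 named exons, 19 of 36 moved by more than the spread of the libraries when only Known skips counted, most in Zswim7 (42.3 points), and 20 of 35 when a skip had to join both neighbours, most in the 28-base exon of Myl1 (76.2 points). The shift was under 5 points in 25 of these 36 and in 21 of these 35 exons. The cause of these shifts was not tested, beyond fewer reads or exons where the alternative removes them. Depth limits what can be said of the 294 members with fewer reads.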
